A study of Mus musculus with 73 samples.

Results

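The genes described here are 5 complement genes, *C1ra*, *C3*, *C4a*, *C4b* and *Serping1*, out of 21058 genes in the single-cell table of the mouse jejunum, 20882 in the table of laser-captured tissue and 17399 in the table of bulk epithelium. The last of these does not list *C4a*. They were chosen by their readout: earlier results of the same single cells had shown them far higher in mesenchymal cells than in other cells, so that contrast is described below with no test. Mesenchymal cells were cells with a unique molecular identifier (UMI, the tag that marks one captured mRNA molecule) of at least 2 of 6 genes, *Pdgfra*, *Dcn*, *Lum*, *Col1a1*, *Col1a2* and *Col3a1*. They were 325 of the 2347 cells kept.

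Complement is a cascade of secreted proteins that tags microbes and dying cells. In the classical pathway C1q holds the serine proteases C1r and C1s. C1r activates C1s, and C1s cleaves C4 and C2. The complex that forms cleaves C3, on which all routes of the cascade converge. The C1 inhibitor, encoded by *Serping1*, blocks C1r and C1s. Most plasma complement comes from the liver, and fibroblasts are a known local source in tissues.

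Single cells came from 36 plates of 8 mice, sorted through 11 gates on surface proteins such as PDGFRa, a receptor of mesenchymal cells, and EPCAM, a protein of epithelial cells. A second set held 29 laser capture microdissection (LCM) sections: 6 of the crypt from 3 mice, 8 of the villus bottom, 7 of the villus center and 8 of the villus tip, each of these from 5 mice. All of these were untreated C57BL/6 males, labelled 3 months of age. The third data set was jejunal epithelium of Lgr5(GFP-ires-DTR/+) mice, 4 samples taken 48 h after diphtheria toxin (DT) and 4 after mock injection, labelled 4 months of age. All 8 of these samples carried the same knock-in, which puts GFP and the toxin receptor under the *Lgr5* locus, so the toxin kills any *Lgr5*-expressing cell, crypt stem cells as well as the villus tip telocytes the study was about. Telocytes are mesenchymal cells with long, thin extensions beneath the epithelium.

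Most cells from PDGFRa gates were not mesenchymal by the rule, in each mouse sorted through them. In mice A, B, E and G, 32 of 153, 3 of 199, 13 of 77 and 194 of 545 such cells were mesenchymal. The study also reports that its sort for PDGFRa gave mainly epithelial and immune cells. Mouse C, mouse D and mouse F were sorted through PDGFRa gates, yet their 243, 16 and 268 kept cells from those gates held 0 mesenchymal cells by the rule, and 104, 14 and 234 of them led with epithelial markers. Mice A, B, E and G had at least 5 mesenchymal cells each, 111, 5, 13 and 194, and give the per-mouse values below, which therefore do not include the libraries of C, D and F. The same 380 well barcodes served all plates, 377 of them on more than 1 plate, so a barcode alone identifies no cell. Of the mesenchymal cells, 79 came from gates for doublets, pairs of attached cells, and 168 from a single plate. Of the genes in the rule, *Dcn* was seen in 90.2% of the mesenchymal cells and 1.04% of the others. Of the markers the rule did not use, each of 6 epithelial genes was seen in at most 3.69% of the mesenchymal cells.

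All 5 genes lie on mouse build GRCm38. *C3* (ENSMUSG00000024164) is on chromosome 17 from 57203970 to 57228136, *C4a* (ENSMUSG00000015451) from 34809092 to 34823464 and *C4b* (ENSMUSG00000073418) from 34728380 to 34743882 of the same chromosome, all on the minus strand. *Serping1* (ENSMUSG00000023224) is on chromosome 2 from 84765387 to 84775444, minus strand, and *C1ra* (ENSMUSG00000055172) on chromosome 6 from 124512405 to 124523443, plus strand. *C4a* and *C4b* are close copies, and so are *C1ra* and *C1rb*. In the annotation that gave these positions, *C4b* is typed as protein-coding and *C4a* as a processed transcript. The longest transcripts of *C4a* and *C4b*, of 5371 and 5379 bases, were 95.9% identical over their length and 97.7% identical over the last 300 bases, where the 3′-end reads of the single-cell libraries fall. Of the 31-base words of the *C4a* transcript, 48.9% also occurred in *C4b*. *C1ra* and *C1rb* were 80.1% identical, and only 50.3% over the last 300 bases. The stretch of 60 bases in which the *C4* copies differ most is shown because every statement on one copy alone rests on such bases. It lies in exon 21 of 41, on the minus strand, at chr17:34816086-34816145 for *C4a* and chr17:34735430-34735489 for *C4b*, and capitals mark the 13 positions that differ.
C4a: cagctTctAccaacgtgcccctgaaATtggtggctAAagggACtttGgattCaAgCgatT
C4b: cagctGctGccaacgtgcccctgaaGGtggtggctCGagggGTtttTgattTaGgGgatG
The 3′-end reads of the single cells fall outside this stretch. Since reads that cover no differing base cannot be placed on one copy with certainty, the sum of *C4a* and *C4b* is given beside the copies wherever both were analysed.

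In the single cells, the 5 genes were counted nearly entirely in mesenchymal cells. UMIs were summed per mouse and class and scaled to the class's total, which gives CPM (parts per 1e6 UMIs), a scale that does not depend on gene length. *C1ra*, the protease that starts the classical pathway, stood at 505, 1003, 770.1 and 619.9 CPM in the mesenchymal cells of mice A, B, E and G, a mean of 724 ± 215 (SD, n = 4), against 1.12 ± 1.83 in their other cells. The protease was above the other cells in 4 of 4 mice, and 237 of its UMIs were in mesenchymal cells against 2 elsewhere.

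*C3*, the component on which the routes converge, had 1344, 4514, 1980.2 and 3281 CPM in the same order, with a mean of 2779.6 ± 1409 against 3.31 ± 5.47 in other cells. *Serping1* had 2363, 3761, 2970.3 and 2717 CPM, with a mean of 2953 ± 594 against 2.82 ± 2.00. Both were higher in mesenchymal cells of each of the 4 mice, and *C3* varied more between mice than *Serping1*. Among 13906 genes seen in the mesenchymal cells of these mice they ranked 20 and 19 by the mean over mice, while *C1ra* ranked 204, *C4b* 254 and *C4a* 339.

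The 2 copies of *C4* were the most uneven. *C4a* had 271, 0, 1100.1 and 453 CPM and *C4b* 379, 0, 1430.1 and 542, again for mice A, B, E and G. Their sum averaged 1044 ± 1073 CPM in mesenchymal cells and 8.73 ± 12.7 in other cells. Mouse B had 0 UMIs of either copy in its 5 mesenchymal cells, and the mean of the sum without mouse E was 548. The sum was thus above the other cells in 3 of 4 mice.

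**Figure D1:**
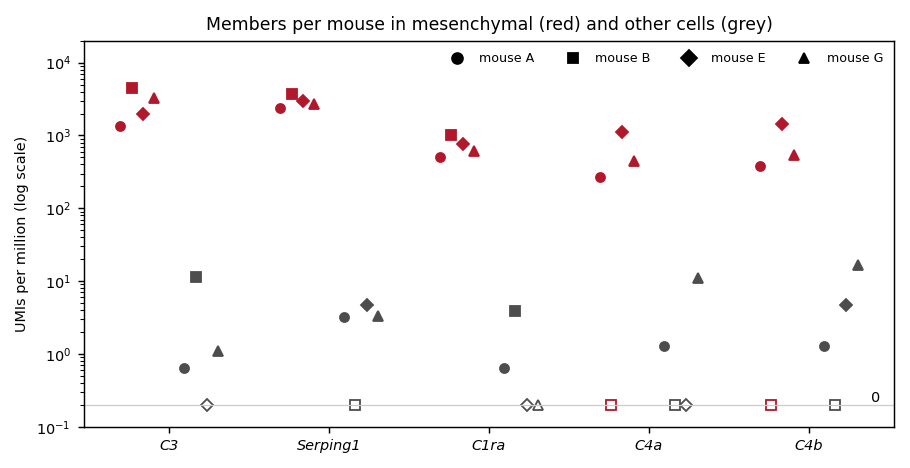
CPM (log axis) of *C3*, *C4a*, *C4b*, *Serping1* and *C1ra* in mesenchymal cells (red) and other cells (grey) of mice A, B, E and G, with a count of 0 drawn as an open symbol at the bottom. The red points of *C3*, *Serping1* and *C1ra* lie between 505 and 4514 and every grey point of these genes at 11.5 or lower.

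Pooled over all libraries, those of mice C, D and F included, mesenchymal cells held 99.4% of the *C3* UMIs (1077, against 6 in other cells), 99.0% of *Serping1*, 99.2% of *C1ra*, and 91.4% of the *C4* sum (363, against 34). Of 18491 genes that could be compared, 519 (2.81%) were higher in mesenchymal cells of each of the 4 mice and 2953 (16%) were lower, and 3 of the 5 members were among the former. The members were picked for this difference, so nothing is read from that count. Without the doublet gates the means over the 4 mice in mesenchymal cells were 2697 CPM for *C3*, 2843 for *Serping1*, 721 for *C1ra* and 977 for the *C4* sum. Without the plate with most mesenchymal cells they were 2614, 2971, 738 and 882.

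Not every mesenchymal cell showed every gene. *Serping1* was seen in 74.8% of the 325 cells (95% exact interval 69.7–79.4%), *C3* in 58.8% (53.2–64.2%), *C1ra* in 36% (30.8–41.5%) and either *C4* copy in 20.9% (16.6–25.8%). Intervals cover counting error only. The median mesenchymal cell had 1028 UMIs and the median other cell 1444.5, and after each cell was thinned to 400 UMIs the shares were 54.0%, 45.0%, 17.1% and 14.8%. For comparison, the 1565 cells led by epithelial markers, with a median of 1777 UMIs, showed *C3* in 0.192%, *Serping1* in 0.192%, *C1ra* in 0.0639% and *C4* in 0.319%. The 142 cells led by lymphoid and general immune markers had 0 cells with any of them, which allows a share of up to 2.11%. The shares in the deeper epithelial cells were far below those in mesenchymal cells, and the limit for immune cells applies to cells with a UMI at their median of 719.

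The genes were often seen together. Of the mesenchymal cells, 56 showed 0 of the 5 genes, 62 showed 1, 94 showed 2, 83 showed 3 and 30 showed 4 with the *C4* copies counted as 1 gene. Among the other cells, 1996 showed 0, 24 showed 1 and 2 showed 2. *Serping1* was seen in 90.6% of the cells with *C3* and 52.2% of those without it, but the former had a median of 1288 UMIs and the latter 742.5, and the part of depth in this was not tested. The UMIs were unevenly spread: a *C3*-positive cell had a median of 4 and up to 54, and the 10 cells with most held 19.4% of all mesenchymal *C3* UMIs, 13.5% for *Serping1*, 40.7% for *C4a* and 41.3% for *C4b*.

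The *C4* copies appeared in the same cells. Of 68 mesenchymal cells with either, 55 had both, 6 had *C4a* alone and 7 had *C4b* alone. In 19 the counts were equal and in 51 they were within 1 UMI of each other, and all 30 cells with at least 5 *C4* UMIs had both. Across the 68 cells the copies' counts correlated with Pearson's r of 0.85, against 0.51 for *C3* and *Serping1* in the same cells, values that share each cell's depth. *C4a* made up 41.7%, 43.5% and 45.5% of the *C4* UMIs in mice A, E and G, close together in mice whose *C4* levels differed widely. How the counting placed UMIs that fit both copies was not tested.

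**Figure D2:**
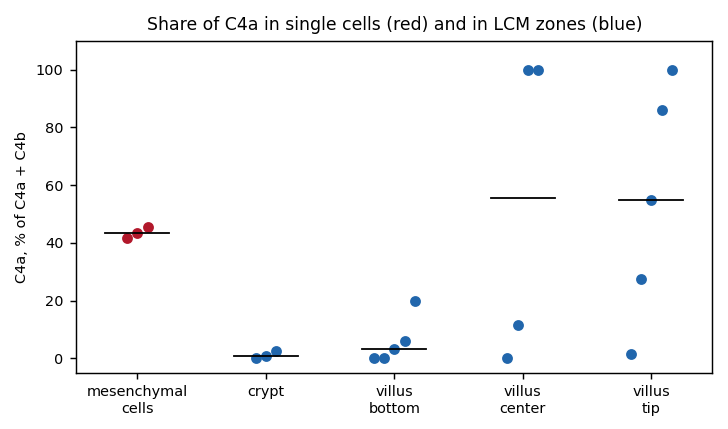
Share of *C4a* in the sum of *C4a* and *C4b* (percent) in the mesenchymal single cells of mice A, E and G (red) and in each mouse of the 4 LCM zones (blue; 1 villus center mouse with both copies at 0 has no point), with a line at each median. The single-cell points lie from 41.7% to 45.5%, whereas the LCM points run from 0% to 100%.

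Outside the mesenchymal class, *C4* was concentrated in 6 cells led by glial markers, 5 of them from mouse G. These held 10 UMIs of *C4a* and 14 of *C4b*, or 3363 CPM for the sum (95% exact Poisson interval 2155–5004), in 5 of the 6 cells. The same cells had 0 UMIs of *C3* and *C1ra* and 1 of *Serping1*. The remaining non-mesenchymal cells held 10 *C4* UMIs in 6 cells, 2.45 CPM. With cells of essentially 1 mouse, no comparison between mice was possible for this class.

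The mesenchymal cells were divided by which of 4 marker lists held most of their UMIs. The lists came from the study, which drew them from these cells and named *C3*, *C4a*, *C4b* and *Serping1* beside the crypt telocyte list, so the levels below are a description. The list names are the study's. In the LCM sections, the summed crypt telocyte list had medians of 521 TPM (a length-corrected share of transcripts) in the crypt and 48.7 in the tip. For the villus tip telocyte list these were 77.3 and 56.9. Its sums ranged over 62.1–104 in the crypts and 17.8–170 in the tips, and those of the crypt telocyte list over 206–638 and 16.2–529. The sums of these short lists alone do not place the cells. The study placed its villus tip telocytes by in situ hybridization of genes such as *Lgr5* and by its own marker sums in these sections. Pooled over mice, *C3* was highest in the 119 cells led by the crypt telocyte list (4468 CPM), followed by 2541 in the 92 cells led by the villus tip telocyte list, 1084 in the 26 led by the enteric mesothelial fibroblast list and 143 in the 72 led by the myofibroblast list. Per mouse, *C3* was at 3097, 3262 and 4843 in the crypt telocyte cells of A, E and G, and at 3601 and 2372 in the tip telocyte cells of A and G. The order between these telocyte groups therefore differed between mice A and G. In the myofibroblast cells *C3* was at 129 in A and 0 in G, which had only 5 such cells.

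*C4* separated the telocyte groups more than *C3* did. Pooled over mice, the *C4* sum was at 1958 CPM in the crypt telocyte cells, 543 in the myofibroblast cells, 161 in the enteric mesothelial fibroblast cells and 108 in the tip telocyte cells. Mouse A had 1296 in crypt and 458 in tip telocyte cells and mouse G had 2116 and 68.5, the same order in both. The order of the other groups did not hold per mouse: myofibroblast cells were at 388 in A and 0 in G, below the tip telocyte cells of the same mouse, and 14 of their 38 UMIs came from 3 cells of mouse E. Either copy was seen in 42.0% of crypt telocyte cells and 7.61% of tip telocyte cells, whose median depth of 1365 UMIs was above the 1030.0 of the former. *Serping1* was at 3983 in crypt telocyte cells, 2249 in enteric mesothelial fibroblast cells, 2031 in tip telocyte cells and 1329 in myofibroblast cells, a narrower range. *C1ra* was at 834, 538, 400.3 and 161 CPM in crypt telocyte, tip telocyte, myofibroblast and enteric mesothelial fibroblast cells, with 756 and 852 in the crypt telocyte cells of mice A and G and 524 and 531 in their tip telocyte cells.

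**Figure D3:**
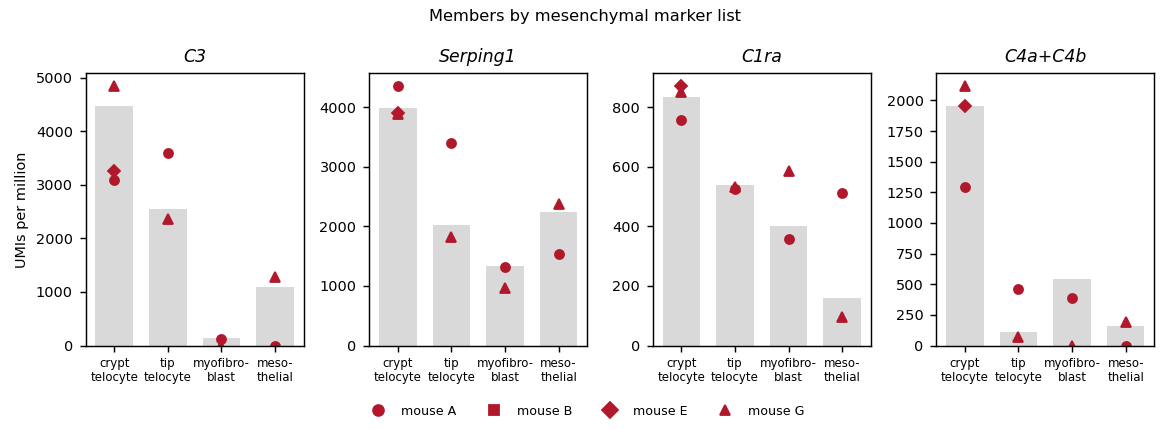
CPM of *C3*, *Serping1*, *C1ra* and the sum of *C4a* and *C4b* in mesenchymal cells grouped by their leading marker list (bars, pooled cells) with each mouse that had at least 5 such cells (points). *C3* is at 4468 in the crypt telocyte group and 143 in the myofibroblast group, and the *C4* sum is at 1958 in the former and 108 in the villus tip telocyte group.

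The levels on either side of the rule's threshold of 2 markers are described only. The members were picked for a difference across it, so nothing is read from a step there. The 64 cells with 1 marker, just outside, had 16.1 CPM of *C3*, 32.3 of *Serping1*, 10.8 of *C1ra* and 10.8 of *C4*, with a median of 2927.5 UMIs. The 23 cells with 2 markers, just inside, had 815 of *C3*, 2329 of *Serping1*, 524 of *C1ra* and 0 of *C4*, with a median of 591 UMIs. *C3* and *C4* were higher still in cells with more markers, at 3779 and 1432 in the 37 cells with 6. Those cells were deeper than the cells with 2, with a median of 1679 UMIs.

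Few other genes of the pathway were seen in these cells. Of 51 complement genes, listed by role from general knowledge, 40 were in the single-cell table, 18 had a UMI in mesenchymal cells, 6 were higher there than in other cells in each of the 4 mice and 2 were lower. Over all 18491 genes compared, 2.81% were higher and 16% lower. The 6 include *C1ra*, *C3* and *Serping1*, members that were picked for this difference, so nothing is read from the count. Among recognition proteins and proteases, *C1s1*, the partner protease of C1r, was at 1072 ± 368 CPM against 0 in the other cells of these mice, and the collectin *Colec12* at 199.8 ± 49.0 against 13.5, both in 4 of 4 mice. *C1rb*, the copy of *C1ra*, was at 63.6 ± 46.6, whereas *C1qb* and *C1qc* had 0 UMIs in any cell. The collectin *Mbl2* was lower, at 0 against 10.0. Among central components only *C3* was higher in every mouse, and factor B (*Cfb*), at a pooled 126 against 109.5 CPM, was higher in only 3 of 4 mice. Of the regulators, *Serping1* and the decay-accelerating factor *Cd55* (167 ± 63.6 against 47.2) were higher in each mouse, while *Cd55b* was lower, at 0.928 against 12.7. Clusterin (*Clu*) was at 329 ± 616, a mean carried by 1 mouse. Of the terminal components only *C7* had UMIs in mesenchymal cells, at 8.62 ± 12.8, and 0 of the 7 receptors listed had any.

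The LCM data ask where along the axis from crypt to villus tip the genes were expressed. The sections hold all cell types, so fewer cells of a type and less RNA per cell cannot be told apart. Values are TPM, a length-corrected share of all transcripts, after removal of enterocyte genes and rescaling, called ppm here, averaged over the sections of a mouse and zone. Zones were compared in limma on log2(ppm + 1) over the 13535 genes whose mean exceeded 5 ppm in at least 1 zone, so fold changes on this scale understate those of low genes. All 5 members were tested, *C4a* only because of its villus tip mean of 5.36 ppm, the zone where it was highest.

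*C4b* had the largest difference between tip and crypt among the members. It was at 75.1, 98.2 and 364 ppm in the crypts of mice 1 to 3, and at 9.36, 36.8, 84.1, 57.9 and 7.00 ppm in the villus bottoms of mice 1 to 5. In the villus center it was at 93.6, 0, 125, 0 and 0 ppm, and in the villus tip at 2.43, 1.25, 125, 2.00 and 0 ppm. The tip was below the crypt of the same mouse for each of the 3 mice that had both zones, although the tip of mouse 3 overlapped the crypt values. The log2 fold change of tip against crypt was −4.83 (95% interval −8.18 to −1.48, limma unadjusted p = 0.0065, adjusted p = 0.991 and exact permutation p = 0.107 over mice). Bottom against crypt gave −2.35 (−5.70 to 1.00, limma adjusted p = 1, exact p = 0.0714) and tip against bottom −2.48 (−5.38 to 0.42, limma adjusted p = 0.990, exact p = 0.103). None of these passed the adjusted threshold of 0.05.

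The sum of the copies followed *C4b*, with means of 180.4 ± 160.2 ppm in the crypt (n = 3), 39.8 ± 32.2 in the bottom, 48.0 ± 62.1 in the center and 31.4 ± 53.4 in the tip (n = 5 each). Its log2 fold change of tip against crypt was −3.46 (95% interval −6.29 to −0.63, limma adjusted p = 0.991, exact p = 0.107). *C4a* alone was far lower and had its higher means in the villus center and tip. These means were 1.16 ± 0.758 ppm in the crypt, 0.808 ± 0.991 in the bottom, 4.18 ± 4.92 in the center and 5.36 ± 5.40 in the tip. *C4a* was at 0.927, 1.51, 1.94, 12.2 and 10.2 ppm in the tips of mice 1 to 5, and at 2.01, 0.937 and 0.542 ppm in the crypts of mice 1 to 3. The 2 highest tip values thus came from mice with no crypt sections. Since the tip value alone brought *C4a* past the filter, no test of its tip against another zone is given. The *C4a* share of the sum was 2.61%, 0.946% and 0.149% in the crypts, 0–19.9% in the bottoms and 1.53–100% in the tips, where *C4a* was the higher copy in 3 of 5 mice. These shares differed from the 41.7–45.5% of the single cells, a comparison across assays that count transcripts differently and that was not tested.

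*C3* was highest in the villus center by its mean, at 246 ± 283 ppm, against 105 ± 114 in the crypt, 13.5 ± 15.7 in the bottom and 52.0 ± 69.0 in the tip. The center values were 686, 0.321, 324, 221 and 0 ppm for mice 1 to 5, so the mice spanned the whole range of the zones. The crypts were at 84.6, 2.45 and 227 ppm, the bottoms at 23.6, 0.103, 36.1, 3.14 and 4.35, and the tips at 77.5, 6.54, 162, 0.347 and 13.1. *C3* was lower in the bottom than in the crypt in 3 of 3 mice (log2 fold change −2.46, 95% interval −6.51 to 1.59, limma adjusted p = 1, exact p = 0.25) and higher in the tip than in the bottom in 4 of 5 (1.27, −2.23 to 4.78, limma adjusted p = 0.990, exact p = 0.429). Tip against crypt gave −1.18 (−5.23 to 2.87, limma adjusted p = 0.991, exact p = 0.607).

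*Serping1* had means of 34.9 ± 31.5, 43.5 ± 37.0, 102.7 ± 134.9 and 15.9 ± 21.4 ppm in crypt, bottom, center and tip. In the tip it was at 52.0, 0, 11.6, 0 and 16.1 ppm, and in the bottom at 10.6, 15.2, 81.5, 24.5 and 85.6 ppm, so it was lower in the tip in 4 of 5 mice. The log2 fold change of tip against bottom was −2.31 (95% interval −4.78 to 0.16, limma adjusted p = 0.990, exact p = 0.119). Tip against crypt gave −1.99 (exact p = 0.321) and bottom against crypt 0.32 (exact p = 0.75). The high center mean came from 187 and 300.5 ppm in mice 1 and 4, with 5.48–11.9 ppm in the rest.

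*C1ra* was the flattest of the 5. Its means were 19.2 ± 20.7 ppm in the crypt, 35.0 ± 29.4 in the bottom, 23.0 ± 19.7 in the center and 20.9 ± 24.0 in the tip, with SDs about as large as the means. The log2 fold changes were −0.09 for tip against crypt (95% interval −2.45 to 2.27, exact p = 0.964), 0.87 for bottom against crypt (exact p = 0.393) and −0.96 for tip against bottom (exact p = 0.349). Intervals of this width do not show that the zones were alike.

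**Figure D4:**
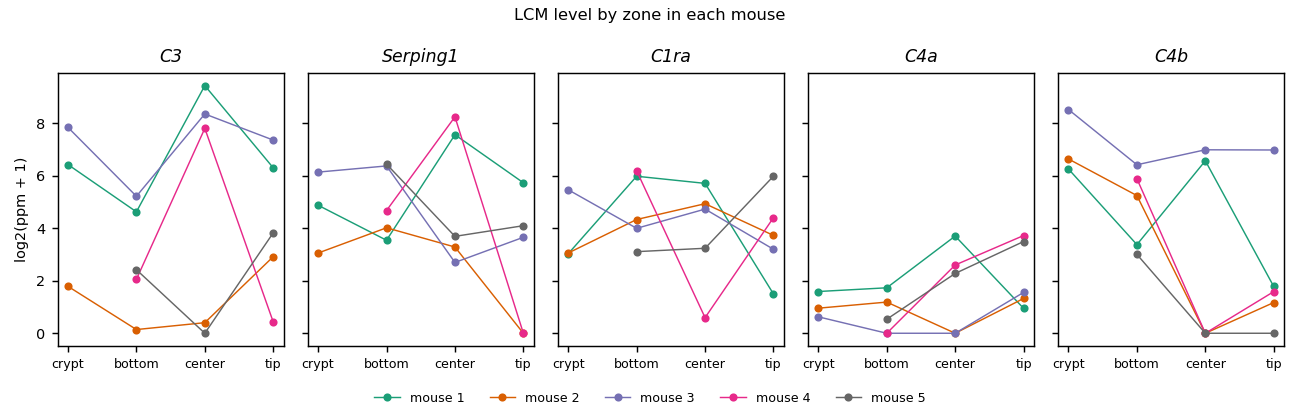
log2(ppm + 1) of *C3*, *C4a*, *C4b*, *Serping1* and *C1ra* in each mouse (points) of the crypt, villus bottom, villus center and villus tip. *C4b* has its 3 crypt points at 75.1 ppm or higher and 4 of its 5 tip points at 2.43 ppm or lower, while the points of each other gene overlap widely between zones.

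Across the whole table these libraries gave few differences. In each of the 3 comparisons 0 of 13535 genes were called by limma in either direction (0%), and 0 of the 5 members. Unadjusted p-values under 0.05 in limma numbered 153 higher and 288 lower for tip against crypt, 98 and 107 for bottom against crypt, and 127 and 493 for tip against bottom. Groups of mice that did not overlap at all were found for 0 of the 5 members in any comparison. Over all genes the shares were 0.672% higher and 1.8% lower for tip against crypt, 1.2% and 1.17% for bottom against crypt, and 0.111% and 0.791% for tip against bottom. The smallest exact p the design allows is 0.00794 with 5 against 5 mice and is larger with 5 against 3. There were 18 such tests of the members and the *C4* sum. Replicate sections were noisy: over 11 pairs from the same mouse and zone, the median absolute log2 difference was 1.20 for *C3*, 1.52 for *C4a*, 2.43 for *C4b*, 3.38 for *Serping1* and 3.24 for *C1ra*.

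The mesenchymal markers varied between sections as well. The summed TPM of the 6 mesenchymal markers ranged over 91.2–355 in the crypts, 40.9–167 in the bottoms, 38.9–1104 in the centers and 26.3–186 in the tips, with all 6 genes above 0 in each zone. In the center, the mice with *C3* at 686, 324 and 221 ppm had marker sums of 1104, 494 and 584 TPM, and those with *C3* at 0.321 and 0 had 93.7 and 38.9. The tip of mouse 3, which had the 125 ppm of *C4b*, also had the highest marker sum of the tips. The part of these differences in the members' profiles was not tested. Epithelial markers, of which *Krt20*, *Vil1* and *Cdh1* were listed in this table, summed to 118–2246 TPM and were present in every zone.

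Over the 18 mouse and zone means, the genes whose log2 level was most like the members' mean standardized level were *Igfbp5* (Pearson's r = 0.87), *Bod1* (0.83), *Cyr61* (0.81), *Rbbp5* (0.80) and *Gas6* (0.78). These points share mice and libraries. The marker *Dcn* followed at 0.72, ranked 21, whereas *Pdgfra* was at −0.02. Among the members themselves, *C3* and *Serping1* had r = 0.53, *C3* and the *C4* sum 0.49, and *C1ra* and *C3* −0.10.

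Of the 51 complement genes 32 were tested in the LCM data and 0 were called in any comparison. Their median log2 fold change was −0.06 for tip against crypt (0.04 over all genes), 0.18 for bottom against crypt (0.14) and −0.14 for tip against bottom (−0.06). For tip against crypt, the smallest p-values after *C4b* belonged to *C1qa*, a chain of C1q, and to *Cfd*, the protease that cleaves factor B, with log2 fold changes of −2.47 and −4.34 (limma unadjusted p = 0.0322 and 0.0370). For tip against bottom they belonged to the 3 C1q chains, at −3.26 for *C1qa*, −4.23 for *C1qb* and −3.64 for *C1qc*. Immune markers were lower there as well: the summed TPM of 4 listed macrophage and dendritic markers was 135–520 in the bottoms and 11.8–135 in the tips, and that of 6 lymphoid markers 245–1052 and 98.7–283. Their part in the C1q values was not tested. For bottom against crypt they belonged to *Cr1l*, *C3ar1* and *C4bp*, none under 0.05 before adjustment.

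The epithelial samples give the level of the genes in the tissue that surrounds these mesenchymal cells, and test whether it changed 48 h after *Lgr5*-expressing cells were ablated. Totals were 748458–4210158 UMIs per sample. *Lgr5* itself was at 11.2–69.5 CPM in mock and 6.37–47.2 in DT samples, so the epithelial level of the gene that drives the toxin receptor overlapped between groups. In samples 1 and 2, which formed one batch, it was at 42.8 and 69.5 in mock and 47.2 and 32.4 in DT. In samples 3 and 4, the other batch, it was at 11.2 and 24.2 in mock and 6.37 and 13.2 in DT. The study reports that *Lgr5* had returned in the crypts by this time, yet not at the villus tip. The level in epithelium was thus no test of telocyte loss. The mesenchymal markers summed to only 6.68–17.1 CPM in mock and 2.90–21.1 in DT samples. *C4a* was not listed for the epithelium, so *C4b* is given there without a sum of the copies.

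Each of the 4 listed members was low in this epithelium. *C3* was at 19.3, 34.7, 7.60 and 9.14 CPM in the mock samples and 32.0, 18.9, 7.17 and 4.40 in the DT samples, means of 17.7 ± 12.5 and 15.6 ± 12.6 (SD, n = 4 each). Samples 1 and 2 of each group formed one batch and samples 3 and 4 another, and *C3* averaged 27.0 in mock and 25.4 in DT in the first against 8.37 and 5.79 in the second. The batches thus differed more than the groups, which overlapped. *C3* was the only member of the 4 in this table past the filter on low counts, with a log2 fold change of −0.32 for DT against mock (SE 0.29, 95% interval −0.96 to 0.31, edgeR adjusted p = 0.569, exact permutation p = 0.629).

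The other members had between 14 and 37 UMIs per group. *C4b* was at 4.92 ± 4.95 CPM in mock (35 UMIs) and 3.10 ± 1.93 in DT (24 UMIs), exact permutation p = 0.657. *C1ra* was at 2.77 ± 1.96 (37 UMIs) and 1.37 ± 0.419 (14 UMIs), exact p = 0.514, and *Serping1* at 1.04 ± 0.913 (15 UMIs) and 1.39 ± 0.948 (14 UMIs), exact p = 0.657. The smallest p that 4 against 4 samples allow is 0.0286. These exact tests take no account of the batch. With batch as a covariate and no filter, edgeR gave log2 fold changes of −1.11 for *C1ra* (unadjusted p = 0.0730, adjusted p = 0.411), −0.62 for *C4b* (adjusted p = 0.667) and 0.20 for *Serping1* (adjusted p = 0.951). None of them passed the threshold.

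**Figure D5:**
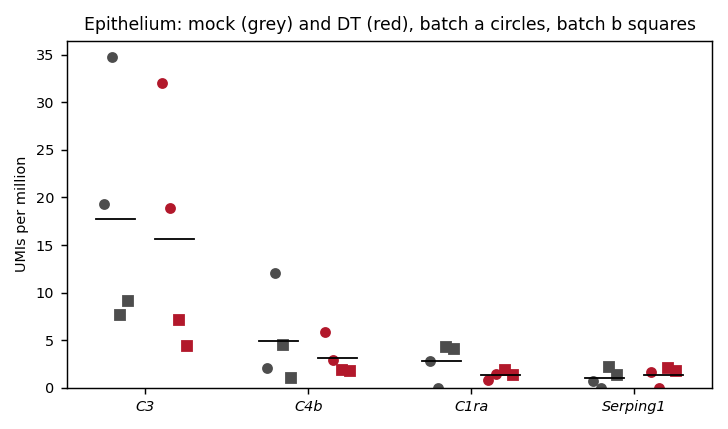
CPM of *C3*, *C4b*, *C1ra* and *Serping1* in epithelium 48 h after mock injection (grey) or DT (red), with circles for the first batch, squares for the second and a line at each mean. *C3* runs from 4.40 to 34.7 and the other genes stay at 12.02 or lower, with the groups overlapping for each gene.

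Over the 8986 genes tested, edgeR called 32, of which 2 (0.0223%) were higher and 30 (0.334%) lower after DT, and 0 of the members. With the sample number as a block, which pairs a DT with a mock sample, 3 genes were called. Of the 51 complement genes 47 were listed and 6 tested, with 0 called. The smallest p belonged to *Cd59a*, an inhibitor of the terminal complex, at a log2 fold change of −1.04 (edgeR unadjusted p = 0.0278, adjusted p = 0.245), followed by *Cr1l* at 0.21 and the member *C3*, and then by *Mbl2* at 0.76, none of these under 0.05 before adjustment.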

How the data were processed

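The members and lists were chosen with earlier results of these data known. Single cells (MARS-seq) and epithelium (mcSCRBseq) were deposited by the authors as UMI counts per gene, aligned with zUMIs to GRCm38. The LCM sections (SMARTseq) were deposited by the authors as TPM from kallisto on coding transcripts, run with its option for stranded reads. Group came from the labels. Of 12698 wells, 352 of a plate that matched no sample were not used. The cell filter was 400 to 8000 UMIs with no fewer than 250 genes, and the study's subtraction of empty wells was not repeated because the labels do not mark empty wells. Doublets were not called. Genes making up 50% of mock epithelial UMIs, ribosomal and mitochondrial genes excepted, were taken as enterocyte genes: 378 were removed from the LCM table (4.97–44.7% of TPM), in place of the study's own list. Samples were then divided by the sum of genes under 1% of the sample, and 1 ppm was added before the logarithm. Sections show 5481–17306 genes above 0, but TPM keeps no depth.

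The zones were tested in limma 3.58.1 with a trend, with 1 mean per mouse and zone, and DT against mock in edgeR 4.0.16 (TMM, robust quasi-likelihood test, batch as covariate, above 10 CPM in at least 2 samples). P-values were adjusted by Benjamini-Hochberg over all genes tested, and the LCM and epithelial scripts were tested on simulated data. Exact permutation tests (two-sided) were run in scipy 1.17.1 under Python 3.11.15, with R 4.3.3. The methods describe 4 mice per injection, which the sample labels do not number as mice. Same-numbered DT and mock samples deviated together (correlations 0.612, 0.415, 0.657 and 0.584), and LCM zones shared mice. Positions and transcripts came from GENCODE on GRCm38. Genes named beside the members were the complement genes with the highest mesenchymal level or smallest p in each data set, the cell type markers, and the 5 genes most like the members in the LCM data. One regulator that this rule names is not reported here. Alternatives were another normalization (DESeq2 1.42.0 among them), filter, added constant, marker number and depth cut, and leaving out each replicate.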

Additional observations from a re-analysis of the deposited data

Results flagged for a closer look

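Over 38 groups of 4 or 5 mice or samples, 6 values stood far from the rest of their group. About 1 group in 20 would give such a value if values were normally distributed, which was not tested here. The groups are not independent, since the *C4* sum repeats the values of its copies. *C4b* was at 125 ppm in the villus tip of mouse 3, against 2.43 ppm in the nearest other mouse, and the sum of *C4a* and *C4b* there was 127 ppm against 14.2. In the non-mesenchymal cells of mouse B, *C3* was at 11.5 CPM against 1.10 in the nearest mouse and *C1ra* at 3.83 against 0.647. In those of mouse G, *C4a* was at 11.05 against 1.29 and the *C4* sum at 27.6 against 4.72. In mouse G, 5 cells led by glial markers held 9 of the 10 *C4a* UMIs and 13 of the 15 *C4b* UMIs of its non-mesenchymal cells.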

How the results depend on the processing

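Of the LCM values under the alternatives, 193 kept their direction and side of the threshold, 6 reversed and 2 counts moved. The small log2 fold change of *C1ra* for tip against crypt (−0.09) became 0.013 with 10 ppm added before the logarithm, 0.037 with mouse as the replicate block, 0.07 without mouse 1 and 0.86 without mouse 3, over a range of −0.64 to 0.86 when a mouse was left out. That of *Serping1* for bottom against crypt (0.32) became −0.25 without mouse 2 and −0.04 without mouse 5, over a range of −0.25 to 0.78. Without a filter on low values limma called 2 genes for tip against crypt and 2 for bottom against crypt. The mouse block changed no other direction or call, but it moved sizes. With it, tip against crypt was −0.30 for *C3* (−1.18 without), −3.82 for *C4b* (−4.83) and −2.16 for *Serping1* (−1.99). Tip against bottom for *C4b* stayed at −2.48, with an interval of −4.72 to −0.24 in place of −5.38 to 0.42 (limma adjusted p = 0.613). The main fit and the exact tests did not pair zones by mouse, and not every mouse had crypt sections.

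Leaving out a mouse gave log2 fold changes of −5.31 to −4.25 for *C4b* tip against crypt, and adding 0.1 or 10 ppm before the logarithm gave −5.82 and −3.02. In the epithelium, edgeR's 32 calls became 143 in DESeq2, 635 without a filter, 1 without batch, 3 with the number as replicate block, and 3 to 41 when a sample was left out (3 without mock 1, 7 without DT 2, 9 without DT 3, 10 without mock 3, 11 without mock 4 and 21 without mock 2). Taking cells with at least 1 marker as mesenchymal, which left 6 mice to average, gave 1298 CPM for *C3*, 1247 for *Serping1*, 332 for *C1ra* and 392 for the *C4* sum. Asking for 3 markers, which left 3 mice, gave 1618 for the *C4* sum and put *Serping1* at 15.7 and *C1ra* at 5.90 in the other cells. Depth limits the epithelial values of *C4b*, *C1ra* and *Serping1*.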
